A study of Mus musculus with 24 samples.

Results

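A set of 10 genes of the E2F and retinoblastoma families, E2f1, E2f2, E2f3, E2f4, E2f6, E2f7, E2f8, Rb1, Rbl1 and Rbl2, were followed in RNA-seq data of mouse adrenal glands and neuroblastomas. They were taken by gene symbol, and 10 of 10 were found among the 21833 genes of the table. The 24 libraries formed 4 groups. AG were adrenal glands of animals without the recombinase (genotype label CRE -, n = 3). AGM were adrenal glands of MYCN +/-, CRE + animals (n = 5). TI were IGF2BP1-driven neuroblastomas of IGF2BP1 +/+, CRE + animals (n = 7) or of an IGF2BP1 +/-, CRE + animal (n = 1), and TIM were neuroblastomas of animals with both transgenes (labelled IMP1/MYCN, CRE +, n = 8). Of the tumors, 1 TI and 2 TIM samples were labelled as adrenal and 1 TIM sample as spinal, and the other samples only as tumor. In AGM, TI and TIM the transgenes sat behind a stop cassette at the Rosa26 locus and were switched on by a Cre that the Dbh promoter drives, thus in cells that make noradrenaline and their precursors, whereas the libraries were made from whole tissue. Ages were not given in the labels. The paper reports a shorter median survival for double transgenic than for homozygous IGF2BP1 mice, and a later, fixed end point for MYCN mice. Age and group therefore cannot be told apart in comparisons among AGM, TI and TIM.

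E2F proteins bind DNA with a DP partner (Tfdp1 or Tfdp2) and control the genes that a cell needs to copy its DNA and divide. The activators E2F1, E2F2 and E2F3 are held back by the pocket protein RB, encoded by Rb1. E2F4 acts mainly as a repressor together with the pocket proteins encoded by Rbl1 and Rbl2 and, in resting cells, with the MuvB subunits in the DREAM complex. E2F6 represses without pocket proteins, and the atypical factors E2F7 and E2F8 bind without a DP partner and repress from late S phase on. Cyclin-dependent kinases release E2F from the pocket proteins by phosphorylation, which mRNA levels do not report. Several E2F genes are themselves E2F targets, so the start regions of the members are shown first.

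Each of the following windows covers 250 bases before and 50 bases after the start of the canonical GENCODE transcript (GRCm39, start counted as base 1, sequence 5′ to 3′ on the strand of the gene). Capitals mark matches to the E2F words TTTCCCGC, TTTCGCGC, TTTGCCGC and TTTGGCGC, searched on both strands. The windows of E2f1, E2f2, E2f7 and Rbl1 are shown as examples of windows with a match, and that of Rbl2 as the member that fell in both kinds of tumor. They lie at chr2:154411763-154412062 (minus strand) for E2f1, chr4:135899335-135899634 (plus) for E2f2, chr10:110581056-110581355 (plus) for E2f7, chr2:157046426-157046725 (minus) for Rbl1 and chr8:91796414-91796713 (plus) for Rbl2.
E2f1: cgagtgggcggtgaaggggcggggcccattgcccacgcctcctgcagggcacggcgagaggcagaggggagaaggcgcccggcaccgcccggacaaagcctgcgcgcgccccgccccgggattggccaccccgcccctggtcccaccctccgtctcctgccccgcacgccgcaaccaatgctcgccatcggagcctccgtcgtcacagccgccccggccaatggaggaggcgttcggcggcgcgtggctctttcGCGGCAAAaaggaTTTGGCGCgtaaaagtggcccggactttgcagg
E2f2: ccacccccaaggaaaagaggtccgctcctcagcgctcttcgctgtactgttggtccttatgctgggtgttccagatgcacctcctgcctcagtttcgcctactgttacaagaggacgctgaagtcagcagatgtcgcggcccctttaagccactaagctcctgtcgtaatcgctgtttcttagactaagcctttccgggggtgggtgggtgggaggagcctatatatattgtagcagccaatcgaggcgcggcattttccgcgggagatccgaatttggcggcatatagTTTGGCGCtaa
E2f7: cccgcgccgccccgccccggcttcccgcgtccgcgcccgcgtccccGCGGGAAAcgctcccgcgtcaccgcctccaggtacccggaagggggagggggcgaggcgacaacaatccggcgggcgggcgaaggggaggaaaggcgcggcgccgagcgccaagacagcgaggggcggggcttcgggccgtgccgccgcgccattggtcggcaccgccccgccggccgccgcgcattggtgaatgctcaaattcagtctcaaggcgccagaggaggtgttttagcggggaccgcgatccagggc
Rbl1: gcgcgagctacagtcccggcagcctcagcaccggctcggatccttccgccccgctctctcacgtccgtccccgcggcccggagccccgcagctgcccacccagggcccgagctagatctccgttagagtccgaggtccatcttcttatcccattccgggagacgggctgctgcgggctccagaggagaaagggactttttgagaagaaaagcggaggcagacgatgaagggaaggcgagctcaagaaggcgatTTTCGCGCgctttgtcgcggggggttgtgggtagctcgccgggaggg
Rbl2: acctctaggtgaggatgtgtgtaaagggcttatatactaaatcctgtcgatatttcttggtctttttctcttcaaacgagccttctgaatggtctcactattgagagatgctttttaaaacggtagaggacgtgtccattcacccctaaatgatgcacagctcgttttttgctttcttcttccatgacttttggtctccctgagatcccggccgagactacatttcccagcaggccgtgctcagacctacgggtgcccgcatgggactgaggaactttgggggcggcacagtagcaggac

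In the E2f1 window 2 E2F words lay 3′ of the start, TTTGCCGC on the antisense strand at bases 5 to 12 and TTTGGCGC on the sense strand at bases 18 to 25. E2f2 held TTTGGCGC at bases 40 to 47 and Rbl1 TTTCGCGC at bases 4 to 11, both on the sense strand. The match of E2f7 (TTTCCCGC, antisense) lay at bases -204 to -197. E2f3 held 1 match as well (TTTCCCGC, antisense, bases -11 to -4), and Rbl2 and E2f6 held none of these 4 words. Among the windows of 21770 genes, 2.82% held at least 1 E2F word and 0.119% held 2 or more. The E-box word CACGTG, to which MYC proteins can bind, was in none of these 7 windows and in 7.81% of all windows. A match describes the letters of the window and not a bound site.

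The values were FPKM made by the authors after a batch correction of the counts. Reads are given here as recovered from these corrected values, not as sequenced. All libraries gave between 12334076 and 23683176 of them outside the 126 genes that exceeded 1000 FPKM somewhere. No member or listed E2F-related gene belonged to those 126. Sequencing run and group went together: AG was read in run 1 and AGM in run 2, TI mostly in run 1 (6 of 8) and TIM in runs 2 (3 samples) and 3 (5 samples), so that run and genotype cannot be told apart in the comparisons of AGM or TIM with AG. The mouse Igf2bp1 row held at most 81 reads in any library and mouse Mycn overlapped between AG (0.559 to 0.823 FPKM) and AGM (0.559 to 1.19 FPKM), so neither row checks the transgene labels of the glands. Marker levels differed between the groups. The summed level of 6 adrenal cortex markers was 642 to 662 FPKM in AG and 3580 to 4794 FPKM in AGM but 0.0173 to 9.96 FPKM in TI and 0.281 to 9.28 FPKM in TIM. That of 5 sympatho-adrenal markers (Th, Dbh, Phox2a, Chga, Hand2) was lowest in AG (84.96 to 123 FPKM) and higher in AGM (892 to 1685 FPKM), TI (135 to 1547 FPKM) and TIM (155 to 3814 FPKM). Adipocyte markers (4 genes) summed to 45.8 to 199 FPKM in AG, 177 to 980 in AGM, at most 0.195 in TI and at most 11.8 in TIM. The recovered reads of a library, which are corrected values and not sequencing depth, summed to 17434796 to 17893013 in AG. They summed to 116740738 to 1170004708 in AGM and 58530450 to 888626365 in TIM. In AGM and TIM the 126 highest genes took most of them. For highly expressed markers, cell composition and this difference in read sums cannot be told apart when AGM or TIM is compared with AG. Fewer cells of a type and less RNA per cell cannot be told apart in such bulk samples, and the part of these markers in the differences between glands and tumors was not tested.

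Against AG, TI tumors had more E2f2, E2f6, E2f7 and E2f8 mRNA and less Rbl2. TIM tumors had less Rbl2, and more E2f7 by a call that did not hold without the filter on low values, and AGM glands had less Rb1 and Rbl1. The AGM call of Rbl1 was lost when any one AG library was left out, and further members passed as lower in AGM under other settings. TIM differed from TI in lower E2f2, E2f6, E2f7, E2f8, Rb1 and Rbl1. Of these, the E2f7 and E2f8 calls did not hold without the filter, and those of E2f2, E2f7 and E2f8 not with a spread from the tumors alone. E2f1, the best known activator, and E2f4 did not pass this test in any comparison with AG, although E2f1 passed in AGM vs AG under other settings given with its values. Differences were tested with limma on log2(RPM + 1), where RPM is FPKM times gene length in kilobases. On this scale a fold change of a gene near 0 is understated. All 24 libraries shared one estimate of the spread, 13686 genes were tested, and an FDR below 0.05 was called. All 10 members passed the filter on low values, E2f7 and E2f8 only through tumor libraries, so their comparisons with the glands are also given without the filter.

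In TI vs AG 5 of 10 members were called, beside 49.8% of all genes. Of these 5, 4 were higher (23% of all genes) and 1 lower (26.7%). In TIM vs AG 2 were called (50% of all genes), 1 higher (21.9%) and 1 lower (28.1%). The higher ones include E2f7 in both comparisons and E2f8 in the former, which were tested only because they were high in tumors, and of the other 8 members 3 were called in TI vs AG and 1 in TIM vs AG. In AGM vs AG 2 were called (27.1%), both lower (13.5%) and none higher (13.6%). These comparisons share the 3 AG libraries. In TIM vs TI 6 were called (21.9%), all 6 of them lower (12.2%) and none higher (9.68%). TIM vs AGM gave 6 called members (62.5%), 5 higher (30.1%) and 1 lower (32.4%), and TI vs AGM gave 9 (70.1%), 8 higher (34.9%) and 1 lower (35.2%). The counts against AGM include E2f7 and E2f8 as well. The members called lower in TIM vs TI took a larger share than the background, with E2f7 and E2f8 counted, whose calls did not hold without the filter. The median log2 fold change of the 10 members was 0.52 in TI vs AG, -0.06 in TIM vs AG, -0.65 in AGM vs AG and -0.71 in TIM vs TI, while the median of all tested genes lay between -0.04 and -0.01 in these comparisons. With counts scaled to the reads outside the 126 highest genes, the median of all genes moved to -0.39 in AGM vs AG, -0.19 in TIM vs AG and -0.14 in TIM vs TI, and that of the members to -1.24, -0.24 and -0.91. The AGM comparison was most sensitive: it gave 8 called members, all lower, with a spread from these glands alone, 6 with the other scaling and 1 with limma-voom.

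**Figure D1:**
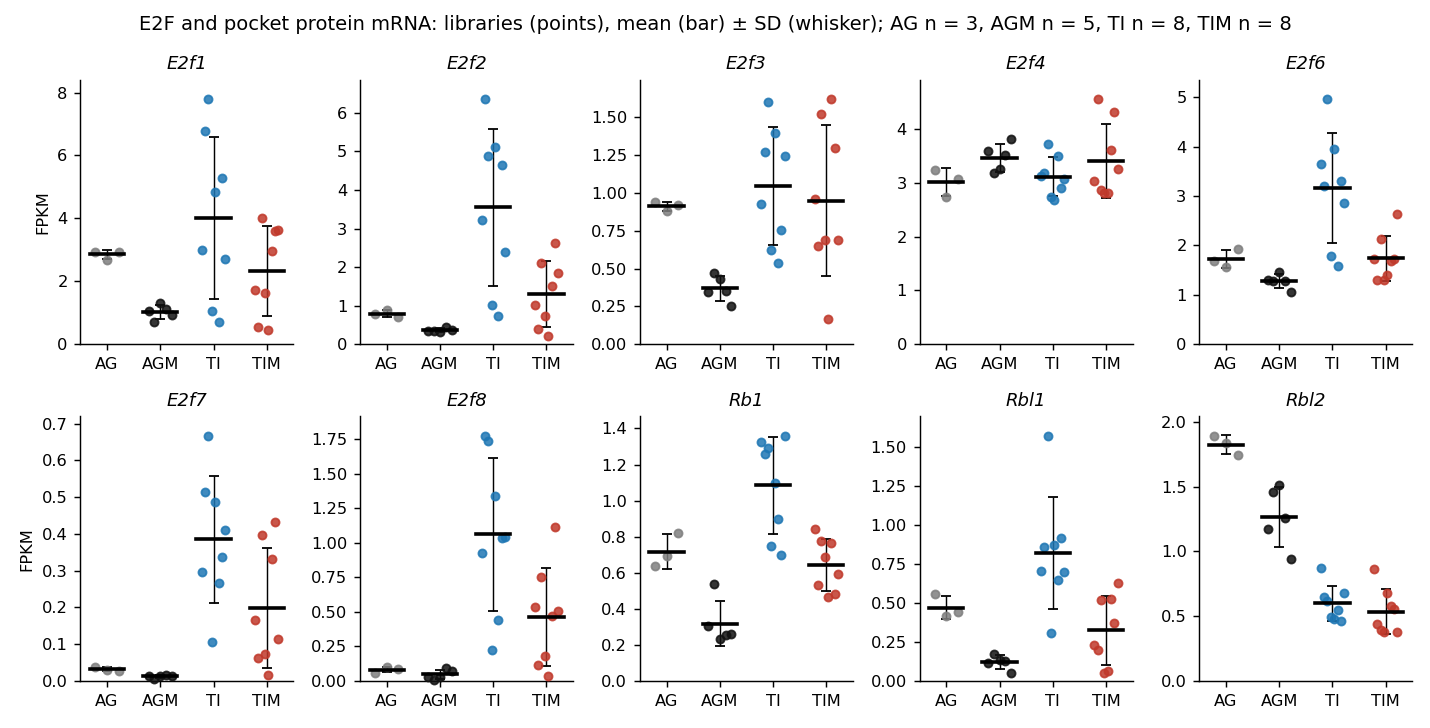
FPKM (y axis, linear, from 0) of the 10 members in each library of AG, AGM, TI and TIM (points), with the group mean (bar) and SD (whisker). E2f7 and E2f8 lay above every AG library in all 8 TI tumors, Rbl2 lay below every AG library in all 16 tumors, and E2f1 spread from 0.722 to 7.78 FPKM within TI.

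Of the activators, E2f1 stood at 2.95, 2.69 and 2.93 FPKM in the AG libraries and at 1.07, 0.715, 1.31, 1.12 and 0.935 FPKM in AGM. TI tumors ranged from 0.722 over a median of 3.90 to 7.78 FPKM and TIM tumors from 0.456 over 2.35 to 4.02 FPKM. Thus 5 TI tumors exceeded and 2 undercut all AG glands, TIM was split into 4 above and 4 below, and every AGM gland was below AG. Ordered by mean FPKM, TI (4.01 ± 2.58, SD, n = 8) was followed by AG (2.86 ± 0.144, n = 3), TIM (2.32 ± 1.42, n = 8) and AGM (1.03 ± 0.221, n = 5), and no neighbours in this order passed the test. The log2 fold change of E2f1 was 0.15 ± 0.56 (SE; limma FDR 0.881) in TI vs AG, -0.51 ± 0.56 (FDR 0.464) in TIM vs AG and -1.25 ± 0.60 (FDR 0.126) in AGM vs AG. The last passed with a spread from these glands alone (FDR 0.000282) and with scaling to the reads outside the highest genes (-1.90, FDR 0.0385). TI and AGM, the ends of the order, differed by 1.40 (FDR 0.0111).

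E2f2, an activator like E2f1, showed a clearer shift. Its level was 0.781, 0.881 and 0.708 FPKM in AG and 0.354, 0.341, 0.319, 0.438 and 0.367 FPKM in AGM. In TI it ran from 0.744 over a median of 3.94 to 6.35 FPKM, and in TIM from 0.221 over 1.27 to 2.63 FPKM. In 7 of 8 TI and 5 of 8 TIM tumors E2f2 exceeded every AG gland, and all AGM glands lay under AG. E2f2 rose by 1.65 ± 0.54 on the log2 scale in TI vs AG (limma FDR 0.0135) and was 1.29 ± 0.40 lower in TIM than in TI (log2 fold change -1.29, FDR 0.0235), whereas TIM vs AG gave 0.36 ± 0.54 (FDR 0.608). The TI call was lost without the AG library at 0.708 FPKM (FDR 0.0518), and the difference between the tumors without the TI tumor at 6.35 FPKM (FDR 0.0534), the TIM tumor at 0.399 FPKM (FDR 0.0518) or that at 0.221 FPKM (FDR 0.0512), and when only TI and TIM set the spread (FDR 0.0823).

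E2f3, an activator with broad expression, was at 0.937, 0.880 and 0.920 FPKM in AG and at 0.343, 0.467, 0.434, 0.353 and 0.255 FPKM in AGM. TI tumors covered 0.538 to 1.60 FPKM around a median of 1.09, and TIM tumors 0.166 to 1.62 FPKM around 0.825. Tumors thus lay on both sides of AG, with 4 above and 3 below all AG glands in TI and 4 above and 4 below in TIM. The log2 fold changes were 0.10 ± 0.35 in TI vs AG (limma FDR 0.875), -0.11 ± 0.35 in TIM vs AG (FDR 0.828) and -0.996 ± 0.38 in AGM vs AG (FDR 0.0552). The AGM value passed with a spread from these glands alone (FDR 0.000560) and with scaling to the reads outside the highest genes (-1.69, FDR 0.0123). The tumors exceeded AGM, by 1.09 in TI (FDR 0.00245) and by 0.89 in TIM (FDR 0.0126).

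E2f4, the main repressor E2F of resting cells, was the steadiest member. It was found at 3.25, 2.74 and 3.08 FPKM in AG, 3.60, 3.18, 3.25, 3.51 and 3.81 FPKM in AGM, 2.68 to 3.72 FPKM in TI (median 3.10) and 2.80 to 4.56 FPKM in TIM (median 3.15). The ranges of all groups overlapped, and 5 of the 8 TI tumors lay below every AGM gland. Its log2 fold changes lay between -0.14 and 0.18 in the 6 comparisons, and the limma FDR between 0.289 and 0.882. These small values carry no sign, as scaling to the reads outside the highest genes turned 4 of them (AGM vs AG from 0.18 to -0.27, for example).

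E2f6, the pocket-independent repressor, was measured at 1.69, 1.56 and 1.92 FPKM in AG and at 1.29, 1.28, 1.47, 1.27 and 1.06 FPKM in AGM. TI gave 1.58 to 4.96 FPKM (median 3.25) and TIM 1.30 to 2.64 FPKM (median 1.70). In TI 6 of 8 tumors were above all AG glands, and in TIM 2 were above and 3 below them. E2f6 rose by 0.74 ± 0.25 on the log2 scale in TI vs AG (limma FDR 0.0166) and the difference between TIM and TI was -0.76 ± 0.18 (FDR 0.00602), which remained called in all 24 fits that left out 1 library. TIM vs AG gave -0.02 (FDR 0.965). The TI vs AG call was lost without the AG library at 1.69 or that at 1.56 FPKM (FDR 0.0545 and 0.0745) and when TI and AG alone set the spread (FDR 0.0529).

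The atypical repressors had the lowest levels in the glands. E2f7 stood at 0.0383, 0.0306 and 0.0272 FPKM in AG and 0.0137, 0.00483, 0.0124, 0.0167 and 0.0133 FPKM in AGM, which rested on 26 to 37 and 4 to 13 reads. TI tumors had 0.105 to 0.666 FPKM (median 0.374, 103 to 601 reads) and TIM tumors 0.0171 to 0.434 FPKM (median 0.140, 14 to 447 reads). Every TI tumor and 7 of 8 TIM tumors exceeded all AG glands, and all TIM tumors exceeded all AGM glands. The log2 fold change of E2f7 was 1.71 ± 0.37 in TI vs AG (limma FDR 0.000515, and 0.000929 without the filter on low values) and 0.94 ± 0.37 in TIM vs AG (FDR 0.0396). Its size depends on the scale, as the TI vs AG value ran from 1.71 to 3.41 over the other settings. The TIM call did not hold without the filter on low values (FDR 0.0545), with limma-voom (2.04, FDR 0.190), without any single AG library (FDR 0.0860 to 0.106) or without the TIM tumor at 0.332, 0.396 or 0.434 FPKM (FDR 0.0648 to 0.0676). TIM was lower than TI by -0.77 ± 0.27 (FDR 0.0461), a call that 5 of the 24 fits without 1 library kept. It was lost with a pseudocount of 0.1 (FDR 0.0516), without the filter (0.0631), with limma-voom (0.0514) and with a spread from the tumors alone (0.126).

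E2f8 behaved likewise at a somewhat higher level. AG libraries had 0.0599, 0.101 and 0.0848 FPKM and AGM libraries 0.0317, 0.0100, 0.0252, 0.0934 and 0.0724 FPKM. In TI, E2f8 ran from 0.223 over 1.04 to 1.77 FPKM and in TIM from 0.0384 over 0.485 to 1.11 FPKM. All TI tumors and 7 of 8 TIM tumors were above AG, while AG and AGM overlapped. On the log2 scale TI vs AG gave 2.07 ± 0.45 for E2f8 (limma FDR 0.000507, and 0.000981 without the filter) and TIM vs AG 1.08 ± 0.45 (FDR 0.0501, and 0.0700 without the filter). Here too the TI vs AG value depends on the scale and ran from 0.88 to 3.45 over the other settings. The difference between TIM and TI was -0.995 ± 0.33 (FDR 0.0347), which 15 of 24 fits without 1 library kept. This call too was lost with a pseudocount of 0.1 (FDR 0.0526), without the filter (0.0504), with limma-voom (0.0547) and with a spread from the tumors alone (0.104).

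Among the pocket proteins, Rb1 was at 0.635, 0.692 and 0.822 FPKM in AG and 0.303, 0.536, 0.232, 0.255 and 0.260 FPKM in AGM. TI tumors ranged from 0.699 over 1.18 to 1.36 FPKM and TIM tumors from 0.468 over 0.641 to 0.842 FPKM. Every AGM gland was below AG, 6 of 8 TI tumors were above it, and 5 of 8 TIM tumors were below every TI tumor. Rb1 fell by 0.90 on the log2 scale in AGM vs AG (-0.90 ± 0.22, limma FDR 0.00486) and the call held in all 24 fits without 1 library. It was 0.48 ± 0.20 above AG in TI (FDR 0.0572) and at -0.14 in TIM vs AG (FDR 0.596). TIM and TI differed by -0.62 ± 0.15 (FDR 0.00642). The TI vs AG value of this tumor suppressor gene passed the threshold with limma-voom (0.57, FDR 0.0495) and in 4 of 24 fits without 1 library.

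Rbl1, the pocket protein gene that is itself cell cycle regulated, had 0.555, 0.415 and 0.442 FPKM in AG and 0.117, 0.174, 0.135, 0.125 and 0.0518 FPKM in AGM. TI tumors covered 0.310 to 1.57 FPKM (median 0.783) and TIM tumors 0.0487 to 0.627 FPKM (median 0.302). In TI 7 tumors were above and 1 below all AG glands, against 1 above and 5 below in TIM, and AGM did not overlap AG. Rbl1 was lower by -1.16 ± 0.38 in AGM vs AG (limma FDR 0.0270) and by -1.08 ± 0.26 in TIM vs TI (FDR 0.00568). The former call did not hold when any one AG library (FDR 0.0634 to 0.105) or the AGM library at 0.0518 FPKM (FDR 0.0637) was left out, or with limma-voom (-2.03, FDR 0.0762), and the latter held in all 24 fits without 1 library. TI vs AG gave 0.56 ± 0.35 (FDR 0.195) and TIM vs AG -0.52 ± 0.35 (FDR 0.229).

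Rbl2, the pocket protein gene of resting cells, followed another order. It was highest in AG with 1.89, 1.84 and 1.75 FPKM, followed by AGM with 1.17, 1.46, 1.51, 1.25 and 0.942 FPKM. TI tumors had 0.464 to 0.871 FPKM (median 0.584) and TIM tumors 0.380 to 0.864 FPKM (median 0.499). No tumor reached a gland of either kind, and no AGM gland reached AG. Rbl2 decreased by 1.44 on the log2 scale in TI vs AG (-1.44 ± 0.20, limma FDR 1.78e-06) and by 1.59 in TIM vs AG (-1.59 ± 0.20, FDR 4.07e-07), and it was lower than in AGM as well (-0.94, FDR 2.75e-05, in TI and -1.09, FDR 5.33e-06, in TIM). TIM and TI were not distinguishable (-0.15 ± 0.14, FDR 0.471), and AGM vs AG gave -0.50 ± 0.21 (FDR 0.0816). The AGM vs AG value passed with a spread from these glands alone (limma FDR 0.0166), on log2(FPKM + 1) (-0.32, FDR 0.0264) and with scaling to the reads outside the highest genes (-0.999, FDR 0.00572). The summed cortex markers were lower in the tumors than in either kind of gland as well, and their part in the Rbl2 difference was not tested.

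Ordered by mean FPKM, the groups fell into few patterns. The order was TI, TIM, AG and AGM for E2f2, E2f3, E2f6, E2f7 and E2f8. Of the neighbours in it, TI and TIM differed for all of these but E2f3, TIM and AG only for E2f7, and AG and AGM for none. With a spread from these glands alone, however, AGM was lower than AG for E2f2 (-0.81, limma FDR 0.000322) and E2f3 (-0.996, FDR 0.000560). The same held for E2f6 (-0.39, FDR 0.0155) and E2f7 (-0.22, FDR 0.00256), whereas E2f8 did not pass in AGM vs AG under any setting. Without the filter on low values, the E2f7 step between TIM and AG did not pass (limma FDR 0.0545). The steps of E2f7 (FDR 0.0631) and E2f8 (FDR 0.0504) between TI and TIM did not pass either. For E2f1, Rb1 and Rbl1 the order was TI, AG, TIM and AGM, in which Rb1 differed between TIM and AGM (log2 fold change 0.76, limma FDR 0.000638) and no other neighbours passed. E2f4 went from AGM over TIM and TI to AG without a called step, and Rbl2 from AG over AGM, TI and TIM with 1 called step, that between AGM and TI.

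Counted by overlap, 3 of 10 members did not overlap between TI and AG (49.2% of all genes), 1 between TIM and AG (41.5%) and 8 between AGM and AG (59%), these 8 all with AGM below. No member was separated between TIM and TI (1.45% of all genes). Between TIM and AGM 2 members were separated (33.2%), and between TI and AGM 8 (48.9%).

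**Figure D2:**
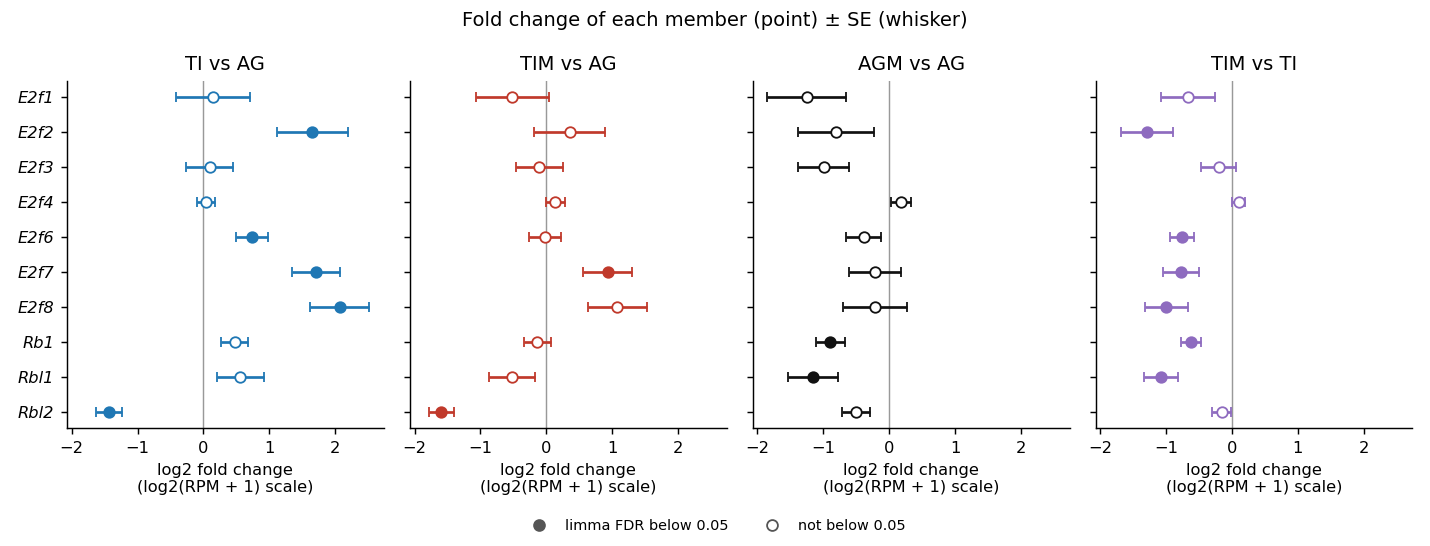
Log2 fold change on the log2(RPM + 1) scale (x axis) of each member (rows) in 4 comparisons, with SE (whiskers). Filled points passed a limma FDR of 0.05. Rbl2 lay at -1.44 and -1.59 in the comparisons of TI and TIM with AG, and E2f8 at 2.07 and 1.08.

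The make-up of each family was compared per length, as each member's part of the summed FPKM. Of the mRNA of the 3 pocket protein genes, Rbl2 held 60.6% ± 2.30 in AG (SD, n = 3) and 74.6% ± 4.84 in AGM (n = 5), but 24.5% ± 4.86 in TI and 36.2% ± 10.9 in TIM (n = 8 each). Rb1 made up 23.8% and 18.5% in AG and AGM and 43.4% in both kinds of tumor. Rbl1 took 15.6% in AG, 6.87% in AGM, 32.1% in TI and 20.4% in TIM. The largest Rbl2 share of a tumor was 56.1% and the smallest of a gland 58.0%, so that glands and tumors did not overlap. As the sum of the pocket proteins was 3.01 ± 0.0681 FPKM in AG and 2.51 ± 0.598 FPKM in TI, the shares changed more than the total there. In TIM the sum was 1.502 ± 0.320 FPKM and in AGM 1.71 ± 0.342 FPKM.

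**Figure D3:**
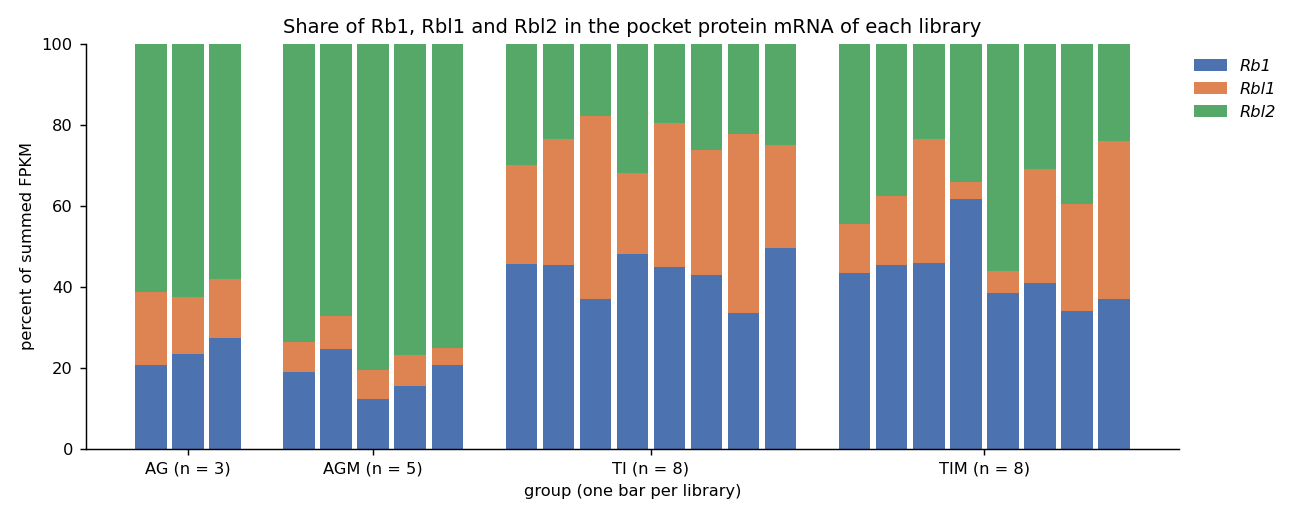
Percent of the summed FPKM of Rb1, Rbl1 and Rbl2 (y axis) in each of 24 libraries (bars), ordered by group. Rbl2 takes over 58% in each gland and at most 56.1% in each tumor.

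The 3 activators together reached 4.56 ± 0.106 FPKM in AG, 1.76 ± 0.230 in AGM, 8.61 ± 4.83 in TI and 4.58 ± 2.64 in TIM. Divided by the pocket protein sum, this gave 1.51 in each AG library, 1.06 ± 0.211 in AGM, 3.32 ± 1.65 in TI (0.958 to 5.21) and 2.96 ± 1.60 in TIM (0.695 to 5.34). The ratio thus had a nearly equal mean in TI and TIM, although activators and pocket proteins were each lower in TIM on average. E2f4 made up 32.05% of the E2F mRNA in AG, 52.9% in AGM, 22.8% in TI (13.6% to 44.9%) and 36.3% in TIM (20.8% to 59.7%). The atypical pair E2f7 and E2f8 contributed 1.22% in AG, 0.881% in AGM, 8.52% in TI and 5.56% in TIM.

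Tumors of 1 group spread widely in most members, and the members differed in how they followed proliferation. The summed FPKM of the proliferation markers Mki67, Top2a, Cdk1 and Bub1 was low in the glands (0.793 to 1.22 in AG and 0.184 to 0.453 in AGM), against 4.04 to 32.5 in TI tumors and 0.324 to 18.4 in TIM tumors. Over the 16 tumors, with each group set to its own mean on the log2(RPM + 1) scale, the mean of these markers correlated with E2f1 (Pearson r 0.909), E2f2 (0.885), E2f8 (0.880), E2f7 (0.852), E2f3 (0.851) and Rbl1 (0.823). The value was 0.693 for E2f6, 0.508 for Rb1, 0.122 for E2f4 and -0.194 for Rbl2. Within TI alone (n = 8), r was 0.979 for E2f8, 0.938 for Rbl1 and 0.919 for E2f1, and within TIM alone (n = 8) 0.850, 0.776 and 0.966. E2f1 and E2f2 had the highest correlation of any pair of members (0.977), followed by E2f2 with E2f8 (0.938) and E2f7 with E2f8 (0.924). Rbl2 correlated with no other member above 0.404 (Rb1), and E2f4 with none above 0.363 (Rbl1). For Rb1 with Rbl2, r was 0.775 within TI alone and 0.0921 within TIM alone. All these values share libraries and scaling and are given as a description.

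**Figure D4:**
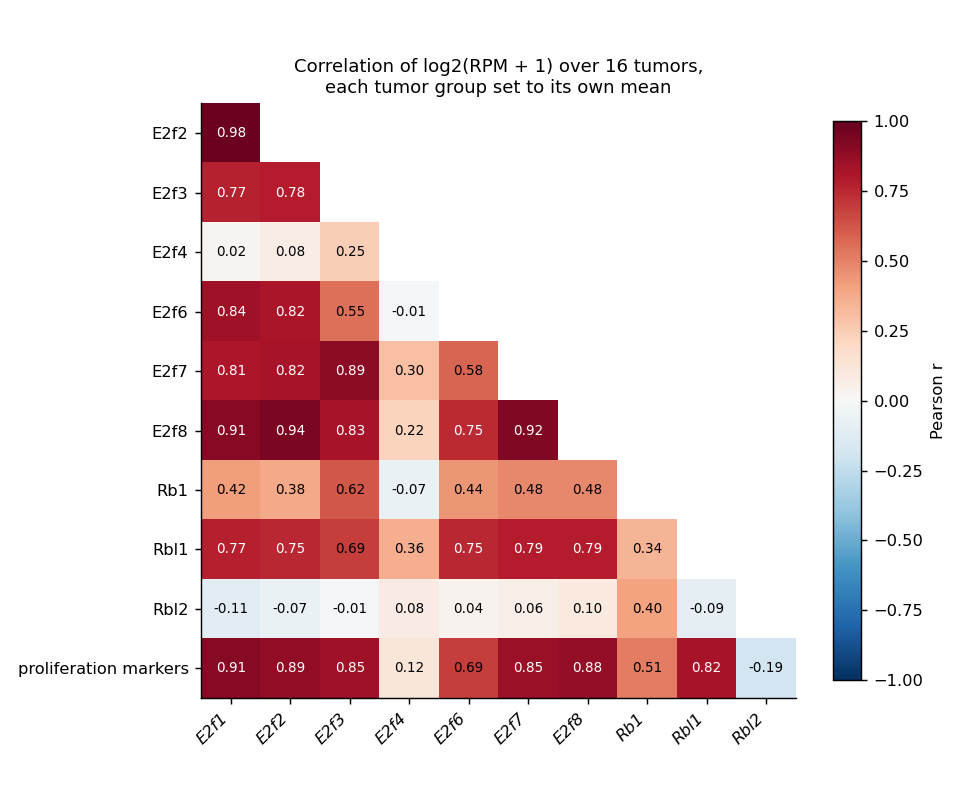
Pearson r (colour and number) between members, and between members and the mean of 4 proliferation markers, over 16 tumors with each tumor group set to its own mean. E2f1, E2f2, E2f3, E2f7, E2f8 and Rbl1 form a block of values from 0.69 to 0.98, and E2f4 and Rbl2 stay between -0.19 and 0.40.

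E2f1 was not tied to proliferation markers in the same way in all tissues. AG libraries held 2.69 to 2.95 FPKM of E2f1 at a marker sum of at most 1.22 FPKM, whereas the TI tumors at 1.04 and 0.722 FPKM of E2f1 belonged to a group with at least 4.04 FPKM of the markers. The plot of E2f1 against the markers shows the AG libraries above the run of the tumors, and Rbl2 divided into a level for glands and one for tumors.

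**Figure D5:**
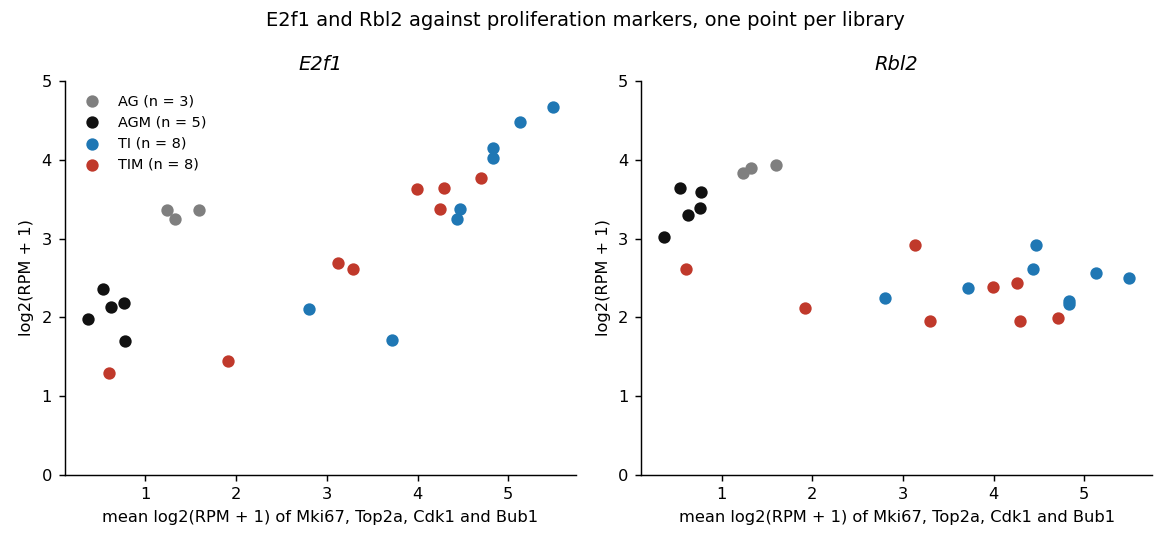
Level of E2f1 (left) and Rbl2 (right) in log2(RPM + 1) on the y axis against the mean log2(RPM + 1) of Mki67, Top2a, Cdk1 and Bub1 on the x axis, 1 point per library. Among the tumors E2f1 goes up with the markers (r 0.909 with groups set to their means), and Rbl2 does not (r -0.194).

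Over all 24 libraries the genes most like each member by Pearson r on the log2(RPM + 1) scale were as follows. E2f1 had Pola2 (0.964), a subunit of the DNA polymerase that primes replication, Rpa2 (0.957), which binds single-stranded DNA, and Cenpv (0.941). E2f2 was closest to Rad54l (0.980), a recombination factor, Pold1 (0.976), the catalytic subunit of a replicative polymerase, and Tdp1 (0.974). For E2f7 they were Clspn (0.985), a replication checkpoint adaptor, Espl1 (0.984), the separase that splits sister chromatids, and Wdr62 (0.981). For E2f8 they were Rtkn2 (0.978), Nsl1 (0.974) and Espl1 (0.973), and for Rbl1 G2e3 (0.970), Srsf2 (0.969) and Mybl1 (0.949). E2f6 had Fancb (0.930), a Fanconi anemia protein, Wrap53 (0.929) and Lrr1 (0.927). E2f3 was nearest to chromatin genes, Smarcc1 (0.954) and Ehmt1 (0.942), and to Nup133 (0.942). Rb1 was nearest to Map4k5 (0.929), Gtf2a1 (0.923) and Pbrm1 (0.922). Rbl2 went with Ccnd2 (0.958), which encodes cyclin D2, Klhl5 (0.955) and Gbp2 (0.953). No gene exceeded 0.726 for E2f4 (Iqcn). The libraries of these correlations include the differences between groups.

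The partners of the members were read from a list of 9 genes, the DP subunits, MuvB subunits and the MuvB partners Mybl2 and Foxm1. In TI vs AG 3 rose (23% of all genes) and 1 fell (26.7%), so that 4 of 9 were called beside 49.8% of all genes. Mybl2 and Foxm1 were low in AG (0.150 to 0.179 and 0.187 to 0.219 FPKM). Both may have passed the filter on low values only through tumor libraries. This limits their calls, and the counts that include them, in every comparison of tumors with glands. Foxm1 (3.08 ± 0.63, limma FDR 0.000261) and Mybl2 (2.96 ± 0.58, FDR 0.000191), the factors that join MuvB to activate genes of late cell cycle phases, and Tfdp1 (1.05 ± 0.32, FDR 0.00808) were higher. Tfdp2, the other DP gene, fell by 3.14 on the log2 scale (-3.14 ± 0.24, FDR 2.47e-10), with 2.79 ± 0.177 FPKM in the AG glands (SD, n = 3) and 0.262 ± 0.0865 FPKM in the TI tumors (n = 8). It was at 0.672 ± 0.183 FPKM in AGM (n = 5) and 0.226 ± 0.0710 FPKM in TIM (n = 8), which gave log2 fold changes of -1.98 ± 0.26 in AGM vs AG (FDR 5.63e-06) and -3.31 ± 0.24 in TIM vs AG (FDR 1.03e-10). Of the MuvB core, Rbbp4 had the smallest value in TI vs AG after Tfdp2 (0.22 ± 0.26, FDR 0.509), and Lin9, Lin37, Lin52 and Lin54 did not pass either.

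In TIM vs AG 2 partners rose (21.9% of all genes), Foxm1 (2.33 ± 0.63, limma FDR 0.00345) and Mybl2 (1.83 ± 0.58, FDR 0.0117), and Tfdp2 fell. In AGM vs AG 2 of 9 fell (13.5% of all genes), Tfdp2 and Tfdp1 (-1.23 ± 0.34, FDR 0.0104), so that both DP genes were lower in the MYCN glands. In TIM vs TI 3 of 9 were lower (12.2% of all genes), Tfdp1, Lin9 and Lin52, and none higher, but limma called 0 of the 9 with a spread from these groups alone (5 had an unadjusted p below 0.05). The count of 3 went to 5 without TIM replicate 8 and lay between 2 and 4 without any other library. TIM vs AGM gave 5 higher and 1 lower (30.1% and 32.4% of all genes), and TI vs AGM 6 higher and 1 lower (34.9% and 35.2%), the lower gene being Tfdp2 in both.

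The list of 19 known E2F target genes covers DNA replication licensing, nucleotide supply and the start of S phase. In TI vs AG 14 of them rose (23% of all genes), none fell and 5 did not pass. Targets with low levels in the glands may have passed the filter on low values only through tumor libraries, which favours calls as higher in tumors. Counts with 1 RPM required in every library are given at the end. The shares of all genes are therefore not an even background for the counts of this list. The largest values were those of Rrm2 (3.71 ± 0.88, limma FDR 0.00119), the small subunit of ribonucleotide reductase, and Ccna2 (2.96 ± 0.66, FDR 0.000616), which encodes cyclin A2. The smallest were Pola1 (-0.21 ± 0.34, FDR 0.658), the catalytic subunit of the priming polymerase, and Pcna (0.81 ± 0.56, FDR 0.246), the sliding clamp of the replicative polymerases. Rrm2 was at 0.727 ± 0.170 FPKM in AG (SD, n = 3), 0.385 ± 0.171 in AGM (n = 5), 21.1 ± 18.03 in TI and 9.08 ± 7.67 in TIM (n = 8 each). In TIM vs AG 6 of 19 targets rose (21.9% of all genes) and none fell (28.1%), beside 50% of all genes called in either direction. This count went to 3, 3 and 2 without AG replicate 1, 2 or 3, to 4 without TIM replicate 7 and to 12 without TIM replicate 5. In AGM vs AG 1 of 19 fell (13.5% of all genes), Pola1 (-1.25 ± 0.36, FDR 0.0140), while with a spread from these glands alone 16 of 19 passed, 15 of them lower. The median log2 fold change of the 19 targets was 1.51 in TI vs AG, 0.91 in TIM vs AG and -0.75 in AGM vs AG.

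Between the tumors, 1 target, Ccne1, was higher in TIM than in TI (0.83 ± 0.22, limma FDR 0.0102) and none lower. Ccne1 encodes cyclin E1, a partner of the kinase that phosphorylates RB, and stood at 0.405 ± 0.0928 FPKM in AG (SD, n = 3), 0.631 ± 0.135 in AGM (n = 5), 1.92 ± 0.424 in TI and 4.003 ± 1.67 in TIM (n = 8 each). TIM thus had more Ccne1 while the E2f2, E2f7 and E2f8 calls went the other way. The other 18 targets did not pass in TIM vs TI, and their log2 fold changes were all negative (-1.25 in Rrm2 to -0.36 in Ccne2). The count of called targets went to 4 and 3 without TI replicate 4 or 6, and to 5, 2, 2 and 3 without TIM replicate 3, 6, 7 or 8. Against AGM, 19 of 19 targets were higher in TI (34.9% of all genes) and 15 of 19 in TIM (30.1%).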

How the data were processed

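Poly(A) RNA of 24 mouse samples was sequenced strand-specifically. The submitters' processing notes name cutadapt 2.8, HISAT2 2.1.0, SAMtools 1.10, featureCounts 2.0.0, edgeR 3.40 and the build mm39. The authors ran ComBat-seq (sva 3.46.0) on the counts against a batch effect, normalized by TMM and deposited FPKM, with a gene length. ComBat-seq replaces a count by a quantile of an adjusted distribution, so values of genes with few reads can move far. Another 9 columns with the authors' log2 fold changes, p-values and FDR against AG were not used.

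Columns were assigned to groups by name. They could not be tied to single samples, so run, zygosity and tumor site entered no fit, and library numbers are names only. P-values measure the spread between libraries, which were treated as separate animals. FPKM times length gave whole multiples of 1 step in 100.0% of values (tolerance 0.001 steps), the reads after correction. Their sum was 12468968 to 21353172 in each AG or TI library and 58530450 to 1170004708 in each AGM or TIM library, where the 126 genes above 1000 FPKM took most. One RPM (FPKM × length / 1000) stood for 74.7 to 134 such reads. The length column had been taken for a genomic span when the scale was chosen. It proved exonic (median 3523 bases), and the scale was kept. Statements on reads cover counting error only.

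Genes with at least 1 RPM in 3 libraries were tested with limma 3.58.1 (R 4.3.3; lmFit, eBayes with trend) on log2(RPM + 1), with Benjamini-Hochberg adjustment over all 13686. The code was tested on simulated data. Limma-voom on the recovered reads called 2449 to 9109 genes over the comparisons. The other alternatives were log2(FPKM + 1), a pseudocount of 0.1, no filter, 1 RPM in every library, scaling to the reads outside the 126 genes, a spread from the compared groups alone and leaving out each library. All 10 members are named, of the partner and target lists the 2 largest and 2 smallest fold changes in TI vs AG, and for each member the 3 genes with the highest r. Other listed genes are named where a count of 5 or fewer covers them, after their values were seen. Members and lists were chosen with earlier results of these data known. The partner and target lists (9 and 19 genes) came from general knowledge, as did the cell type markers (Endothelial, macrophage, Schwann and T cell genes had summed FPKM of 1.96 to 20.0, 9.21 to 39.7, 0.249 to 20.0 and 0 to 0.520 over all libraries). Promoter windows were cut from GRCm39 with GENCODE M39 for 7 members listed in the RefSeq promoter table. Single genes of the target and marker lists and 1 window are not reported here, and the counts leave them out.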

Additional observations from a re-analysis of the deposited data

Results flagged for a closer look

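E2f3 in TIM had 1 library far below the others, at 0.166 FPKM beside 0.648 to 1.62 FPKM in the other 7 tumors. On the log2(RPM + 1) scale, which the flag used, its gap to the nearest library took 0.529 of the range of the group. This was 1 flag among 30 groups looked at, and chance flags about 1 in 20. The same library held 0.456 FPKM of E2f1, 0.221 of E2f2, 0.0171 of E2f7 and 0.0384 of E2f8, in each case the lowest of the 8 TIM tumors. Its mean log2(RPM + 1) of Mki67, Top2a, Cdk1 and Bub1 was 0.601, within the range of AGM (0.366 to 0.773). Its Rbl2 share of 56.1% was the largest of any tumor. Without it, E2f3 moved from -0.11 to 0.11 in TIM vs AG and from -0.20 to 0.02 in TIM vs TI (log2 fold changes, none of them called).

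The changes against AG differed between the 2 kinds of tumor for 6 members, by the direct test of TIM vs TI, which needs no AG library in the difference. All 6 were lower in TIM. The log2 fold changes were -1.29 for E2f2 (limma FDR 0.0235), -0.76 for E2f6 (FDR 0.00602), -0.77 for E2f7 (FDR 0.0461), -0.995 for E2f8 (FDR 0.0347), -0.62 for Rb1 (FDR 0.00642) and -1.08 for Rbl1 (FDR 0.00568). The E2f7 difference passed in 1 of 5 other settings and that of E2f8 in 2 of 6. That of E2f2 did not pass with a spread from the tumors alone (limma FDR 0.0823) and passed in 21 of 24 fits without 1 library. The proliferation markers were lower in TIM as well, with a median summed level of 17.6 FPKM in TI and 8.38 FPKM in TIM. The part of these markers in the differences was not tested. The runs differed as well, since 6 of 8 TI samples and no TIM sample belonged to run 1.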

How the results depend on the processing

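No paired analysis was possible because the columns carry none of the replicate numbers of the labels. Under the other settings, 346 values of members kept direction and call, 16 became called, 18 lost the call and 4 turned. The 4 were E2f4 under scaling to reads outside the highest genes, -0.27 in AGM vs AG, -0.020 in TIM vs TI, 0.27 in TIM vs AGM and 0.29 in TI vs AGM. Without 1 library, 1364 values were the same, 18 became called, 50 lost the call and 8 turned, none of them called. These were E2f4 in TI vs AG (from -0.024, without AG replicate 2, to 0.084), E2f1 in TI vs AG (from -0.024, without TI replicate 3, to 0.40), E2f3 in TIM vs AG (from -0.22 to 0.11, without TIM replicate 5) and in TIM vs TI (from -0.32 to 0.017, without the same library) and E2f6 in TIM vs AG (from -0.10 to 0.057, without AG replicate 3, and above 0 also without TIM replicate 2, 4 or 5).

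Counts of called members moved by over 1.5 times as follows. TIM vs AG gave 1 in place of 2 with log2(FPKM + 1), without a filter, with limma-voom and with a spread from the compared groups alone. AGM vs AG gave 6 with the outside scaling, 8 with the spread from AGM and AG and 1 with limma-voom, in place of 2. TIM vs TI gave 3 in place of 6 with the spread from the compared groups, and TIM vs AGM 3 in place of 6 with limma-voom. Requiring 1 RPM in every library left 6 members, 5 partners and 8 targets to test and gave 3 called members in TI vs AG, in TIM vs AGM and in TIM vs TI, 1 in TIM vs AG and AGM vs AG and 5 in TI vs AGM. It gave 2 partners in TI vs AG, 1 in TIM vs AG, 2 in TIM vs AGM and 3 in TI vs AGM, and as targets 5 in TI vs AG, 2 in TIM vs AG, 0 in AGM vs AG and in TIM vs TI by limma (2 and 3 with an unadjusted p below 0.05), 7 in TIM vs AGM and 8 in TI vs AGM. Without 1 library, the count of members ran from 1 to 3 in TIM vs AG and in AGM vs AG, from 3 to 6 in TIM vs TI, from 4 to 6 in TI vs AG, from 5 to 7 in TIM vs AGM and stayed at 9 in TI vs AGM. TIM vs AG fell to 1 without any AG library or TIM replicate 3, 6 or 7, AGM vs AG to 1 without any AG library or AGM replicate 5, and TIM vs TI to 3 without TI replicate 2 or TIM replicate 2 or 5.

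For the partners, AGM vs AG gave 5 with the outside scaling and 7 with the spread from AGM and AG in place of 2, TIM vs TI 0 with the spread from the compared groups, and limma-voom 1 in TIM vs AG and 3 in TIM vs AGM. For the targets, AGM vs AG gave 0 by limma on log2(FPKM + 1) (0 of 17 also at an unadjusted p below 0.05, and 1 with limma-voom), 4 with the outside scaling and 16 with the spread from both groups, in place of 1. TIM vs TI gave 2 targets in place of 1 with the outside scaling. TIM vs AG gave 4 in place of 6 with the spread from the compared groups and with limma-voom, which also gave 8 in TI vs AG and 8 in TIM vs AGM. Without AG replicate 1 limma gave 0 in AGM vs AG (1 at an unadjusted p below 0.05), and without TIM replicate 5 it gave 3. The cause of these changes was not tested. Precision for E2f7 and E2f8 in the glands is limited by 4 to 58 reads per library.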
